A study of Mus musculus with 35 samples.

Results

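The cachexia effect on hepatocyte chromatin was compared between tumor models, as the effect of C26 tumors minus the effect of 8025 tumors at each accessible region. The comparison used 15 of the 35 libraries of the study: 4 of C26 cachexia, 4 of C26 PBS, 4 of 8025 cachexia and 3 of 8025 PBS, and all 177904 deposited regions were eligible. C26 is a colon carcinoma line grown here in BALB/c mice, and 8025 is a tumor line grown here in C57BL/6N mice. Animals with cachexia had lost more than 10% of body weight, and their controls were labelled as PBS controls; age and sex were not used here. Every animal carried CAG-Sun1/sfGFP and Albumin-Cre, so that a GFP tag sat on the nuclear envelope of Albumin-expressing cells, and nuclei were pulled down by this tag from livers collected at zeitgeber time 9. Open chromatin was then profiled by ATAC-seq, in which a transposase cuts accessible DNA. Strain, tumor line, cohort and library series went together (all C26 libraries in one series of library names, all 8025 libraries in the other), so a difference between the models cannot be told apart from a difference between strains or series.

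Cachexia is the wasting of muscle and fat that accompanies many tumors. In the liver, circulating cytokines of the interleukin 6 family act through STAT3 and C/EBP factors and start the acute phase response, in which hepatocytes secrete serum amyloid A, haptoglobin, lipocalin 2 and related proteins. Glucocorticoids, fasting signals and loss of growth hormone signalling act on the same cells and set genes of glucose, lipid and sex-biased metabolism. Enhancers and promoters that gain or lose factor binding in such states gain or lose accessibility.

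Libraries held 12.6 to 23.8 M tags, and 38.6% to 54.3% of their tags lay in the regions. Values are tags in 400 bp scaled to 10000000 tags per library, called scaled tags below. Region values of replicates had Spearman coefficients of 0.902 to 0.944. Promoters of 7 hepatocyte markers summed to 785 to 865 scaled tags in C26 cachexia, 637 to 873 in C26 PBS, 787 to 1001 in 8025 cachexia and 893 to 967 in 8025 PBS, above the levels of the other cell types below. Of 15 macrophage markers 5 had a promoter region, and these summed to 20.6 to 29.5 in C26 cachexia, 13.1 to 21.6 in C26 PBS, 38 to 44.4 in 8025 cachexia and 17.6 to 24 in 8025 PBS. Neutrophil markers had 2 of 12 promoter regions, with means per promoter of 28.2 in C26 cachexia, 19.6 in C26 PBS, 29.2 in 8025 cachexia and 19.9 in 8025 PBS. Their sums were 52.8 to 57.7 in C26 cachexia against 28.25 to 48.1 in C26 PBS, without overlap. In 8025 the sums were 46.7 to 73.6 in cachexia against 38.3 to 42.4 in PBS, also without overlap. Endothelial markers had 6 of 14 promoter regions, which summed to 66.8 to 74.5 in C26 cachexia against 51.1 to 64.7 in C26 PBS, without overlap, and to 52 to 74.7 in 8025 cachexia against 43.3 to 57.5 in 8025 PBS. Stellate cell markers had 5 of 12, which summed to 58.9 to 76.1 in C26 cachexia against 52.9 to 84.1 in C26 PBS, and to 63.6 to 77.1 in 8025 cachexia against 78.5 to 94.7 in 8025 PBS, lower in 8025 cachexia without overlap. Cholangiocyte markers had 6 of 10, which summed to 110.1 to 122 in C26 cachexia against 82.6 to 126 in C26 PBS, and to 140.3 to 188 in 8025 cachexia against 111 to 185 in 8025 PBS. The part of these cell types in the results was not tested. None of the 13 lymphocyte markers had a promoter region. The share of region tags at promoters was 35.1% to 35.9% in C26 cachexia against 33.5% to 34.7% in C26 PBS, and 33% to 35.5% in 8025 cachexia against 34.2% to 35.7% in 8025 PBS. In bulk libraries, nuclei of another cell type carried along and changes within hepatocytes cannot be told apart.

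Both models changed hepatocyte chromatin widely, and regions called in both mostly changed in the same direction. With limma at a Benjamini-Hochberg adjusted p of at most 0.05, C26 cachexia differed from C26 PBS at 25205 of 176957 tested regions (14.2%), 13157 higher (7.44%) and 12048 lower (6.81%), and 8025 cachexia differed from 8025 PBS at 21787 (12.3%), 12832 higher (7.25%) and 8955 lower (5.06%). In 10338 regions (5.84%) both effects were called in the same direction, 5931 opened and 4407 closed, which was 41% of the C26 calls and 47.5% of the 8025 calls. A total of 27 regions were called in both with opposite signs. The difference of effects itself was called at 178 regions (0.101%): 47 were higher in C26 (0.0266%) and 131 were lower in C26 (0.0740%), and 16064 had an unadjusted p under 0.05. Of the 26262 regions called in a single model, the difference was called at 138 (0.525%), so a call in a single model mostly did not come with a called difference.

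Regions were then put into classes. A region was shared in size when both effects were called in the same direction, the difference was not called, and the 95% interval of the difference lay within 1 log2 unit on either side of 0. This held for 4591 regions (2.59%), 2340 opened (1.32%) and 2251 closed (1.27%), or 44.4% of the regions called in both in 1 direction. The class allows a difference of up to 1 log2 unit and does not mean equal effects. A bound of 1.5-fold left far fewer such regions, as given in the closing section. Another 19 of those had a called difference in size, 11 larger in C26 and 8 larger in 8025, and 5728 had intervals too wide for either class. A region belonged to a single model when its difference was called, that model's effect was called, and the other effect was not called and had a 95% interval within 1 log2 unit of 0. The C26 model had 39 such regions, 16 opened and 23 closed, and the 8025 model had 49, 33 opened and 16 closed. Opposite directions were called at 21 regions, 5 opened in C26 and closed in 8025, and 16 closed in C26 and opened in 8025. The other 50 called differences had an effect called in a single model, 15 in C26 and 35 in 8025, but an interval for the other model that reached past 1.

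**Figure D1:**
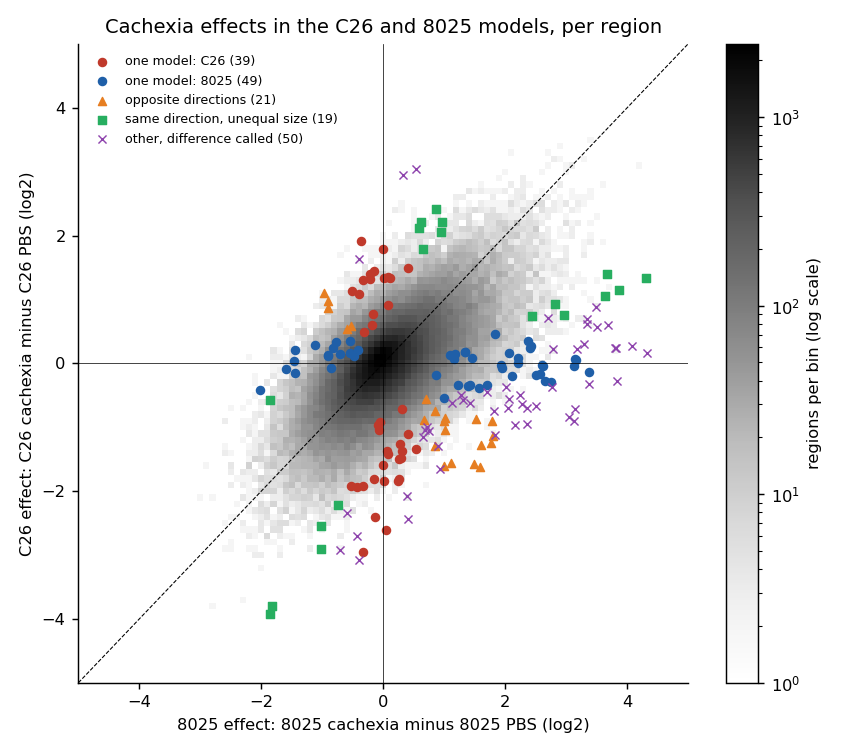
Each bin holds regions by their 8025 effect (x axis) and C26 effect (y axis), both in log2 of scaled tags plus 1, with grey for the number of regions on a log scale and colored marks for the 178 regions with a called difference. The grey cloud lies along the dashed line of equal effects, and the marks lie away from it, with 131 below and 47 above.

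The count of called differences depended on the fit. It ranged from 64 to 401 as each of the 15 libraries was left out, was 16 with the promoter share of each library in the model, and was 1061 when both PBS groups of each strain served as the reference. Of the 178 regions, 33 stayed called whichever library was left out, and 12 were called in each fit that tested them, among 16 alternatives that kept all libraries and 16 that left out 1. These 12 included the regions nearest Sntg2, Pak6, Map3k13, Pus7, Tmem174 and Lrrc32 described below. Regions outside these 12 each lost their call in at least 1 of these fits, and counts of the classes are bound to the main settings.

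The median sizes of the effects were close over the regions where cachexia acted in the average of both models, while sizes at single regions matched less. The average of the 2 effects was called at 42467 regions (24%). In these regions the median effect, signed along the direction of the average, was 0.75 in C26 and 0.79 in 8025 on the log2 scale. On this measure the median difference of sizes (C26 minus 8025) was -0.02, and 48.2% of regions had the larger effect in C26. Which model had the larger typical effect rested on single libraries: the median difference ran from -0.10 without 8025 PBS replicate 4 to 0.02 without C26 cachexia replicate 1, and the share larger in C26 from 42.6% to 51.7% in the same fits. A called average favours effects of 1 sign, so the share of equal signs is given over all tested regions, where it was 68.2%. Across all regions the effects had a Pearson r of 0.616, as a description across regions of 15 libraries. Among the regions called for the average, 37.5% of intervals of the difference lay within 1 log2 unit of 0. There the Spearman coefficient of the 2 effects was 0.35 over opened and 0.29 over closed regions, which the choice by the average also shapes. The match depended on signal. Among opened regions with signal at or above the median of all regions, the median difference of sizes was 0.05, and 55.8% were larger in C26. Among opened regions below the median signal it was -0.38, and 29% were larger in C26, with median effects of 0.88 in C26 and 1.28 in 8025. Closed regions of low signal went the other way, with a median difference of 0.20 and 62.0% larger in C26. Macrophage marker promoters had a mean of 5.31 scaled tags in C26 cachexia against 3.71 in C26 PBS, and 8.43 in 8025 cachexia against 4.15 in 8025 PBS. In the same order, neutrophil promoters had 28.2 against 19.6 and 29.2 against 19.9. Endothelial promoters had 11.8 against 9.88 and 10.5 against 8.74, and cholangiocyte promoters 19.3 against 16.1 and 27.8 against 23.7. Stellate cell promoters had 13.1 against 13.9 and 13.8 against 17.8, and their summed values overlapped in C26 and were lower without overlap in 8025. The part of nuclei of these cell types in the low-signal regions was not tested.

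The 10 regions named for the shared class had effects of at least 2.14 log2 units in size in both models. They were picked among shared regions whose cachexia and PBS libraries did not overlap in either model. Lack of overlap at these regions therefore follows from the choice. Over all tested regions, 15.2% had no overlap in C26 and 22.7% had none in 8025. Nearest Rnf11, which encodes a RING-type ubiquitin ligase, a region at -8249 bp from the start (chr4:109484554-109484954, mm10) had 20.6, 28.9, 32.4 and 38 in C26 cachexia against 1.71, 2.55, 5.57 and 6.52 in C26 PBS. 8025 cachexia had 72.2, 56, 75.6 and 46.3 against 8.73, 8.46 and 9.77 in 8025 PBS. Cachexia values lay above all PBS values in both models, and the log2 effects were 2.68 ± 0.30 (SE, adjusted p = 9.9e-09) in C26 and 2.61 ± 0.32 (SE, adjusted p = 1.8e-07) in 8025, a difference of 0.08 (95% interval -0.81 to 0.96). Within Cd302, a C-type lectin receptor gene, an intronic region (chr2:60277910-60278310) had 51, 36.8, 46.3 and 57.9 in C26 cachexia against 4.7, 16.2, 8.67 and 4.35 in C26 PBS. 8025 cachexia had 93.2, 73.9, 54.7 and 89.6 against 11.8, 8.46 and 17.5 in 8025 PBS. Its groups did not overlap either, and its effects of 2.50 in C26 and 2.52 in 8025 differed by -0.02 (95% interval -0.86 to 0.81). A region nearest Lrrc74a (chr12:86790403-86790803) had 33.8, 54.6, 61.9 and 57.2 in C26 cachexia against 6.83, 8.29, 9.91 and 8.69 in C26 PBS. 8025 cachexia had 135, 112, 158 and 99.2 against 17.4, 12.7 and 30.4 in 8025 PBS. Effects were 2.44 in C26 and 2.61 in 8025, with a difference of -0.18 (95% interval -0.99 to 0.63). All 8025 cachexia values lay above all C26 cachexia values at Rnf11 and Lrrc74a, and overlapped with them at Cd302. The same class held a region at the 3' end of Tppp3, a tubulin-binding protein gene (2.49 in C26 and 2.47 in 8025, difference 0.02 (95% interval -0.87 to 0.90)), and an intronic region of Ndst1, whose product sulfates heparan sulfate (3.07 in C26 and 3.14 in 8025, difference -0.07 (95% interval -0.996 to 0.85)).

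Among shared closings, a region between genes nearest Eid2, which encodes an inhibitor of the acetyltransferase EP300 (chr7:28244101-28244501), had 1.32, 0.79, 2.59 and 1.37 in C26 cachexia against 28.4, 33.5, 44.9 and 27.5 in C26 PBS. 8025 cachexia had 2.07, 1.7, 0.63 and 2.04 against 30.5, 42.6 and 22.9 in 8025 PBS. No cachexia library of either model exceeded 2.59 scaled tags, and the effects were -3.86 ± 0.27 (SE, adjusted p = 6.4e-14) in C26 and -3.68 ± 0.29 (SE, adjusted p = 1.97e-11) in 8025, a difference of -0.18 (95% interval -0.97 to 0.62). A region nearest the growth factor gene Fgf9 (chr14:58166629-58167029) had 3.96, 2.37, 2.59 and 2.4 in C26 cachexia against 16.2, 26.8, 18.9 and 21 in C26 PBS. 8025 cachexia had 1.77, 4.36, 2.1 and 2.91 against 22.4, 19.4 and 20.8 in 8025 PBS. Effects were -2.55 in C26 and -2.60 in 8025, with a difference of 0.05 (95% interval -0.73 to 0.83). A region nearest Phox2a, a homeobox gene known from neurons (chr7:101741753-101742153), had 7.13, 5.93, 6.81 and 4.8 in C26 cachexia against 26.5, 47.8, 31 and 23.9 in C26 PBS. 8025 cachexia had 5.91, 8.97, 2.53 and 4.36 against 19.9, 26.1 and 32.7 in 8025 PBS. No cachexia value reached a PBS value at either region, and the Phox2a effects of -2.22 in C26 and -2.18 in 8025 differed by -0.04 (95% interval -0.77 to 0.70). Regions nearest Emc2, a subunit of the ER membrane complex (-2.51 in C26 and -2.29 in 8025), and Nhlrc3 (-2.14 in C26 and -2.23 in 8025) closed likewise, with differences of -0.22 (95% interval -0.99 to 0.55) and 0.09 (95% interval -0.65 to 0.83). PBS levels of the 2 models also did not differ beyond the threshold at these 10 regions. All 8025 PBS values still lay above all C26 PBS values at Rnf11 and Lrrc74a, while the PBS ranges overlapped at Cd302, Eid2, Fgf9 and Phox2a.

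**Figure D2:**
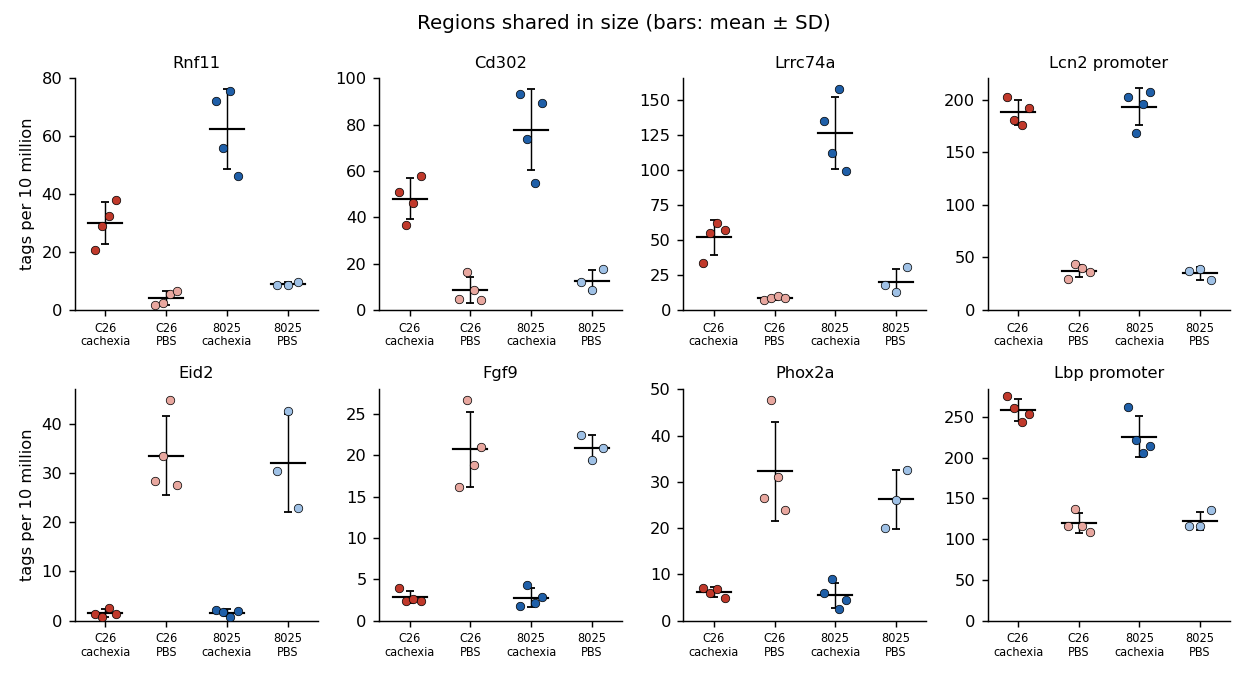
Points are single libraries and bars are mean ± SD in scaled tags for C26 cachexia, C26 PBS, 8025 cachexia and 8025 PBS (n = 4, 4, 4 and 3) at 6 of the regions shared in size and at the Lcn2 and Lbp promoters. In every panel the cachexia points lie on the same side of their PBS points in both models. At the 6 regions shared in size this follows from how they were chosen.

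A panel of 49 promoters of acute phase, cytokine, hormone, clock and metabolic genes held no called difference (0 of 49, where 0.101% of all regions were called; limma), and 37 intervals of the difference lay within 1 log2 unit of 0, against 34.8% of all regions. Panel promoters had high signal: 42 lay in the highest quartile of signal, where 34 of their intervals lay within the bound, and 85.6% of all regions in that quartile did so. By effect, 25 panel promoters were called higher and 3 lower in C26, and 14 higher and 5 lower in 8025, with 17 called in both in 1 direction. Over all 21678 promoter regions the median effect was 0.09 in C26 and -0.01 in 8025. In C26 cachexia 2070 promoters (9.55%) were called higher and 499 lower, and in 8025 cachexia 742 (3.42%) were called higher and 745 lower. The difference of effects was called at 6 promoter regions, and promoters as a class were not tested. The promoter share of tags given above was higher in C26 cachexia than in C26 PBS without overlap, and its part in the promoter counts was not tested.

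Among secreted acute phase proteins, Lcn2, an iron-sequestering lipocalin, had a promoter region (chr2:32387603-32388003) with 203, 181, 176 and 193 in C26 cachexia against 29.7, 43.3, 39.9 and 35.9 in C26 PBS. 8025 cachexia had 203, 168, 196 and 207 against 37.1, 39.1 and 28 in 8025 PBS. The ranges of both cachexia groups overlapped and lay above PBS in both models. Effects were 2.29 ± 0.21 (SE, adjusted p = 3.97e-09) in C26 and 2.42 ± 0.23 (SE, adjusted p = 1.4e-08) in 8025, and the difference was -0.13 (95% interval -0.77 to 0.51). The 250 bases before the Lcn2 start (chr2:32387740-32387989, minus strand, RefSeq on GRCm38.p6) are shown as the example of a promoter that opened alike in both models, with matches to the C/EBP motif TTGCNNAA and the glucocorticoid receptor motif ACANNNTGT in capitals:
Lcn2: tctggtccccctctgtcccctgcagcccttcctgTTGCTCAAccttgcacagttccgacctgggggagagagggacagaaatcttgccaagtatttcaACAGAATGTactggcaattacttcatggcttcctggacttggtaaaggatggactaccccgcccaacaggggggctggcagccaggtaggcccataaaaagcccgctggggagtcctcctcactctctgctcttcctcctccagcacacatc
Motifs were searched on both strands, and these 2 occur in 9.55% and 5.91% of the same windows of 27025 genes. The Lbp promoter, whose product carries bacterial lipopolysaccharide, had 276, 261, 244 and 254 in C26 cachexia against 116, 138, 116 and 109 in C26 PBS. 8025 cachexia had 262, 222, 205 and 214 against 116, 117 and 135 in 8025 PBS. Again cachexia and PBS did not overlap in either model, and the effects of 1.08 in C26 and 0.84 in 8025 differed by 0.24 (95% interval -0.14 to 0.62). Orm1, Hp, Itih3 and Itih4, which encode an acid glycoprotein, haptoglobin and inter-alpha-trypsin inhibitor chains, were the other promoters shared in size, with differences of 0.39 (95% interval 0.06 to 0.73), 0.49 (95% interval 0.02 to 0.96), 0.40 (95% interval -0.07 to 0.86) and 0.26 (95% interval -0.28 to 0.79). The Orm1 and Hp intervals lay within the bound but above 0, so their effects were not equal by these intervals, with the larger effect in C26. Saa1 and Saa2, which encode serum amyloid A, opened in both models (2.06 in C26 and 2.48 in 8025 for Saa1, and 3.42 in C26 and 3.29 in 8025 for Saa2), but their intervals of -0.43 (95% interval -1.70 to 0.84) and 0.13 (95% interval -1.53 to 1.78) were too wide to call the sizes alike, and their near-identical sequences leave the origin of reads uncertain. The fibrinogen promoters Fga, Fgb and Fgg had C26 effects of 0.53, 0.26 and 0.31 and 8025 effects of 0.22, -0.08 and -0.00.

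The metallothionein promoters had the largest positive differences of the panel, without passing the threshold, and Mt2 had its largest C26 effect. Mt2, a zinc-binding stress protein gene, had 277, 278, 239 and 245 in C26 cachexia against 11.7, 9.56, 6.81 and 3.62 in C26 PBS. 8025 cachexia had 274, 226, 211 and 258 against 23.1, 8.11 and 22.6 in 8025 PBS. Cachexia levels lay together near 211 to 278 scaled tags in both models, and the PBS ranges overlapped. Effects were 4.94 ± 0.39 (SE, adjusted p = 2.2e-09) in C26 and 3.77 ± 0.42 (SE, adjusted p = 8.6e-07) in 8025, and the difference was 1.17 (95% interval -0.00 to 2.35), adjusted p = 0.55. Mt1, its neighbor, had 407, 422, 376 and 389.8 in C26 cachexia against 91.6, 66, 37.1 and 49.3 in C26 PBS. 8025 cachexia had 408, 329.6, 333 and 369 against 134, 115 and 149 in 8025 PBS. Its difference was 1.33 (95% interval 0.49 to 2.17), with adjusted p = 0.25 in limma, and it was called in 1 of the 16 alternatives that kept all libraries.

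In cytokine signalling, the promoter of the oncostatin M receptor gene Osmr opened in both models (2.73 ± 0.29 (SE, adjusted p = 3.96e-09) in C26 and 3.37 ± 0.31 (SE, adjusted p = 4.7e-10) in 8025), with a difference of -0.64 (95% interval -1.51 to 0.22). Promoters of Stat3, Socs3 and Il6ra were called in C26 alone (0.24, 0.65 and 0.37 in C26, and 0.10, 0.44 and 0.03 in 8025), and none of the 3 differences was called (0.14, 0.21 and 0.33). On the growth hormone axis, Mup3, a major urinary protein gene, closed in both models (-2.85 ± 0.23 (SE, adjusted p = 3.2e-11) in C26 and -2.45 ± 0.25 (SE, adjusted p = 1.3e-08) in 8025, difference -0.39 (95% interval -1.08 to 0.30)), as did Car3, a carbonic anhydrase gene abundant in male liver (-2.35 in C26 and -2.07 in 8025 for the region at the start). Among clock promoters, Arntl had 131, 166, 136 and 142 in C26 cachexia against 103, 156, 138 and 127 in C26 PBS. 8025 cachexia had 155, 128, 153 and 140.2 against 123, 135 and 154 in 8025 PBS. The groups overlapped, and the difference was 0.08 (95% interval -0.23 to 0.38). Igfbp1, which binds insulin-like growth factors in blood, was called in both (1.26 in C26 and 0.62 in 8025, difference 0.63 (95% interval 0.13 to 1.13)). Cyp7a1, the rate-limiting enzyme of bile acid synthesis, fell in 8025 (0.04 ± 0.16 (SE, adjusted p = 0.91) in C26 and -0.49 ± 0.17 (SE, adjusted p = 0.045) in 8025), and its difference of 0.54 (95% interval 0.07 to 0.997) was not called.

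**Figure D3:**
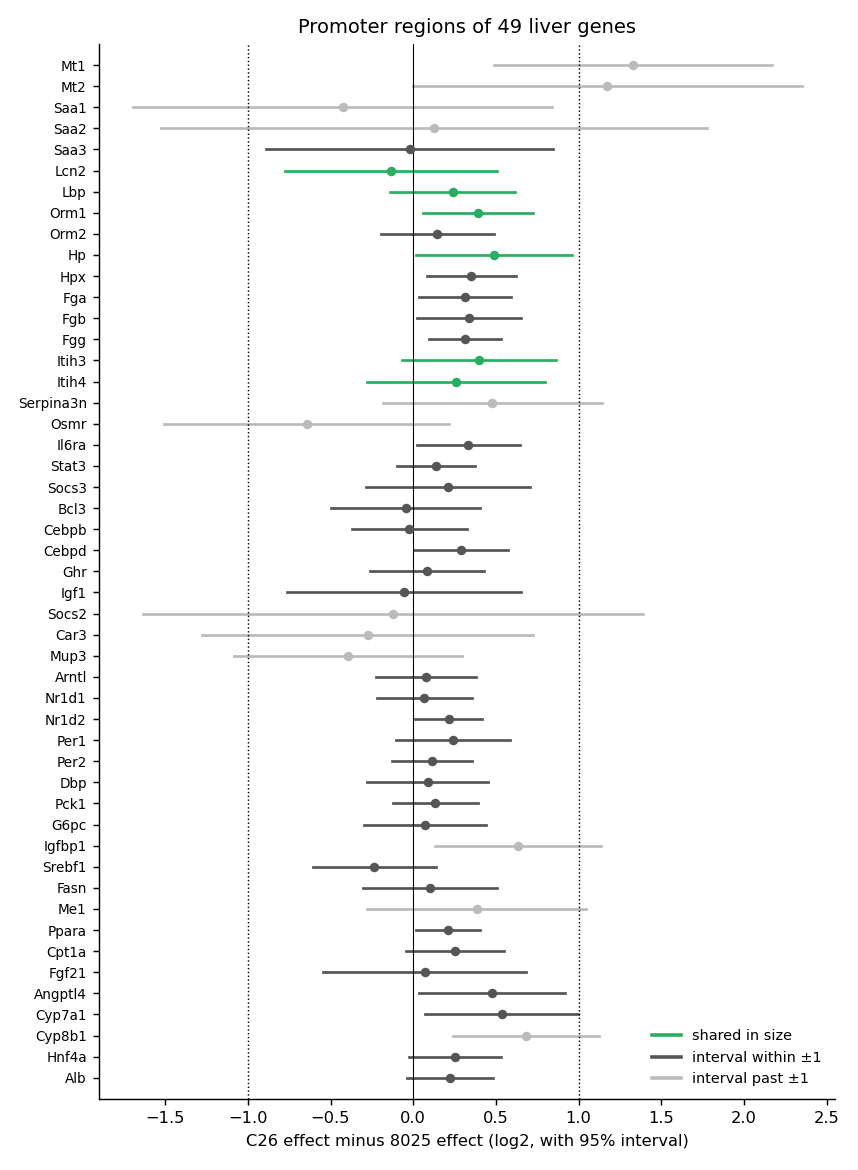
Points are C26 effect minus 8025 effect in log2 at the promoter regions of the 49 panel genes, bars are 95% intervals, and dotted lines mark 1 log2 unit on either side of 0. The 6 green promoters are shared in size, 37 intervals lie within the dotted lines, and none of the differences passed the adjusted threshold.

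Of the 47 regions with a higher effect in C26, 19 were called higher in C26 alone, 16 were called lower in 8025 alone, 6 opened in both, 5 moved in opposite directions and 1 closed in both. Tnfsf11, named after its values were seen and called in every fit, encodes the cytokine RANKL. A region between genes nearest it (chr14:78383332-78383732) had 341, 326, 321 and 322 in C26 cachexia against 47, 131, 68.7 and 65.2 in C26 PBS. 8025 cachexia had 324, 279.9, 258 and 295 against 179, 180.5 and 202 in 8025 PBS. C26 PBS values lay below all others, while both cachexia groups reached high levels. The effects were 2.13 ± 0.14 (SE, adjusted p = 3.3e-12) in C26 and 0.59 ± 0.16 (SE, adjusted p = 0.0099) in 8025, and the difference was 1.54 ± 0.21 (SE, adjusted p = 0.00082). A region nearest Lrrc32, whose product anchors latent TGF-beta at the cell surface (chr7:98522515-98522915), had 126, 111, 153 and 129 in C26 cachexia against 21.1, 27.4, 26.6 and 31.1 in C26 PBS. 8025 cachexia had 155, 131, 117 and 165 against 88.2, 88.5 and 91.3 in 8025 PBS. Cachexia and PBS did not overlap in either model. For this region and the others picked as largest differences, no overlap in the model with the larger effect was a condition of choice. The Lrrc32 effects of 2.22 in C26 and 0.61 in 8025 differed by 1.60 ± 0.25 (SE, adjusted p = 0.0018). This region too was called in every alternative fit, with differences of 1.48 to 1.84.

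Within As3mt, an arsenic methyltransferase gene, an intronic region (chr19:46727141-46727541) had 67.1, 81.8, 79.7 and 90.8 in C26 cachexia against 31.6, 33.1, 40.2 and 21.7 in C26 PBS. 8025 cachexia had 105, 105, 78.3 and 89 against 108, 111 and 129 in 8025 PBS. It opened in C26 alone (1.30 ± 0.22 (SE, adjusted p = 7.1e-05) in C26 and -0.34 ± 0.24 (SE, adjusted p = 0.42) in 8025), with a difference of 1.63 ± 0.32 (SE, adjusted p = 0.0302), and 8025 PBS values lay above all C26 values and above 8025 cachexia without overlap. A region at -16683 bp from the start of Etv6, an ETS-family repressor gene, had 38, 40.3, 39.5 and 44.6 in C26 cachexia against 11.7, 22.3, 19.8 and 7.24 in C26 PBS. 8025 cachexia had 42.6, 24.2, 18.5 and 21.8 against 31.5, 24.7 and 26.8 in 8025 PBS. C26 groups were apart and 8025 groups overlapped, with effects of 1.44 ± 0.24 (SE, adjusted p = 2.04e-05) in C26 and -0.14 ± 0.26 (SE, adjusted p = 0.802) in 8025 and a difference of 1.58 ± 0.35 (SE, adjusted p = 0.046). An intronic region of Sdr42e1 (chr8:117667147-117667547) belonged to C26 as well (1.32 in C26 and -0.22 in 8025, difference 1.53 ± 0.30 (SE, adjusted p = 0.025)), together with an overlapping region. Ercc1, an excision repair gene, had an intronic region (chr7:19349525-19349925) with 34.9, 62.1, 35.3 and 59.6 in C26 cachexia against 7.26, 6.37, 3.71 and 3.62 in C26 PBS. 8025 cachexia had 5.32, 3.15, 4.63 and 5.24 against 3.74, 1.41 and 5.92 in 8025 PBS. Its opening of 2.95 in C26 and 0.33 in 8025 gave the largest positive difference of all called regions, 2.62 ± 0.54 (SE, adjusted p = 0.0302). The calls at As3mt, Etv6, Sdr42e1 and Ercc1 were lost in 8 to 12 of the 16 fits that left out a library.

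Other regions of this direction closed in 8025, with C26 effects that did not pass the threshold. An intronic region of Nsmce2, a SUMO ligase gene of the SMC5/6 complex, had 10.6, 10.7, 11.7 and 10.6 in C26 cachexia against 9.18, 8.29, 7.74 and 11.2 in C26 PBS. 8025 cachexia had 6.51, 3.63, 6.95 and 4.65 against 15.6, 14.8 and 17 in 8025 PBS. All 8025 cachexia values lay below the 8025 PBS values, and the C26 groups overlapped (0.21 ± 0.24 (SE, adjusted p = 0.64) in C26 and -1.44 ± 0.26 (SE, adjusted p = 8.5e-05) in 8025, difference 1.65 ± 0.35 (SE, adjusted p = 0.037)). Synm, an intermediate filament gene, had an intronic region with 12.9, 16.2, 14.9 and 11.7 in C26 cachexia against 19.6, 18.5, 12.4 and 24.3 in C26 PBS. 8025 cachexia had 5.91, 5.82, 4.63 and 11.6 against 24.9, 30 and 32.9 in 8025 PBS. Effects were -0.41 in C26 and -2.01 in 8025, with a difference of 1.60 ± 0.36 (SE, adjusted p = 0.046). A region nearest Zmynd8, which encodes a chromatin reader, was called higher in C26 and lower in 8025. It had 98.5, 52.6, 89.4 and 31.2 in C26 cachexia against 33.5, 41.7, 32.5 and 25.4 in C26 PBS. 8025 cachexia had 3.84, 6.79, 7.79 and 4.36 against 8.41, 8.46 and 18.3 in 8025 PBS. Here C26 livers of both groups stood above all 8025 livers, the C26 groups overlapped, and the effects were 0.86 ± 0.26 (SE, adjusted p = 0.0196) in C26 and -0.91 ± 0.28 (SE, adjusted p = 0.026) in 8025. Leaving out a library ended the calls at Nsmce2, Synm and Zmynd8 in 10, 12 and 13 of 16 fits.

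**Figure D4:**
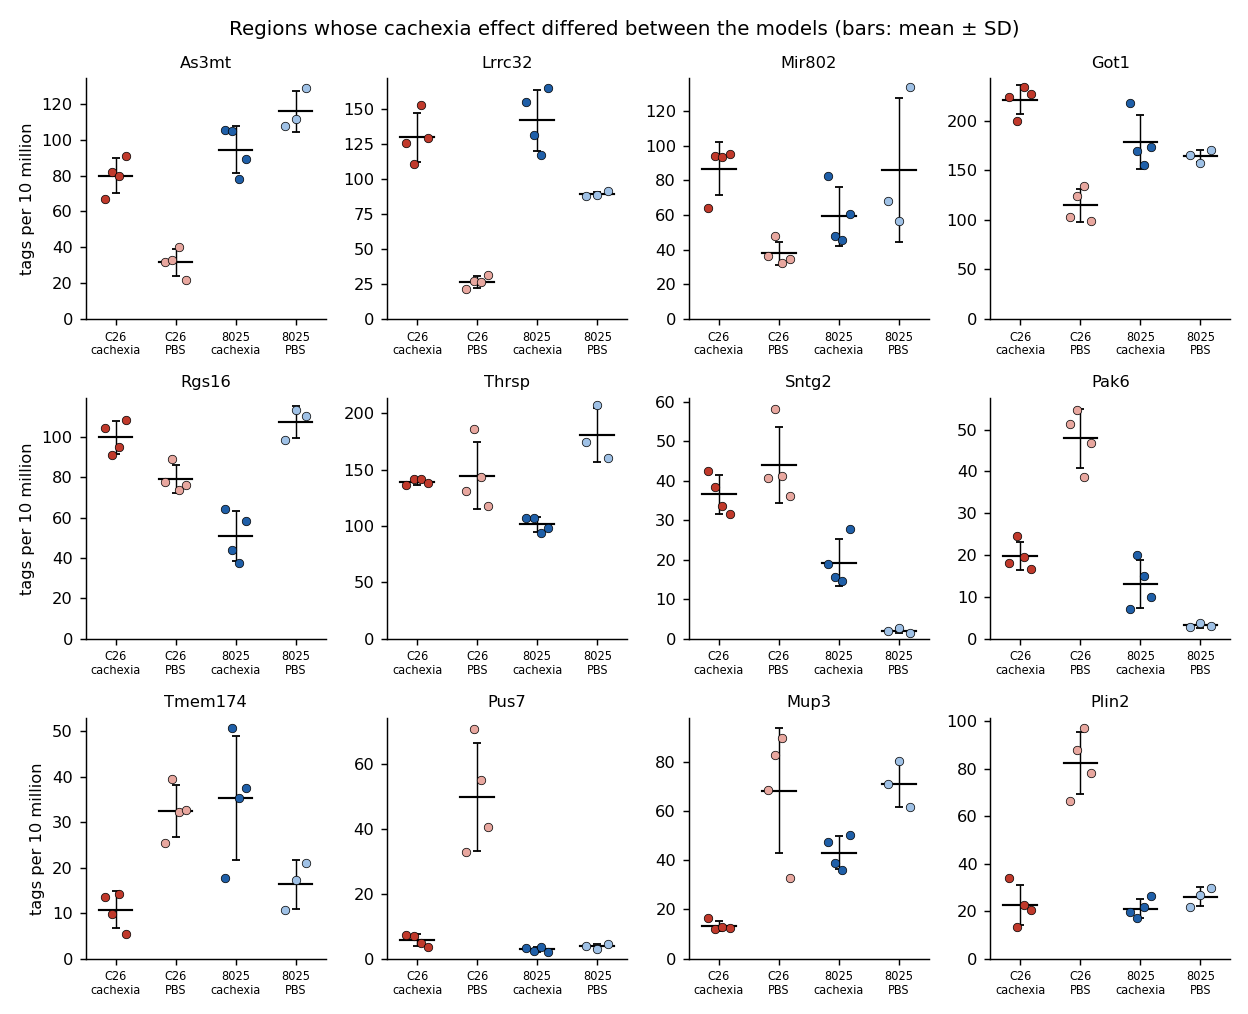
Points are single libraries and bars are mean ± SD in scaled tags for C26 cachexia, C26 PBS, 8025 cachexia and 8025 PBS (n = 4, 4, 4 and 3) at 12 regions with a called difference. At As3mt and Lrrc32 the C26 PBS points lie lowest, at Sntg2 the 8025 PBS points lie lowest, and at Pak6 and Tmem174 cachexia lies below PBS in C26 and mostly above it in 8025.

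In position, 11 of the called differences lay within 1 kb of an annotated start, and these were described after their values were seen. The microRNA gene Mir802, whose product is known to rise in obese mouse liver, had 2 overlapping called regions. The region over and after its hairpin (chr16:93369740-93370140) had 63.9, 94.1, 93.7 and 95.3 in C26 cachexia against 36.5, 47.8, 32.2 and 34.8 in C26 PBS. 8025 cachexia had 82.8, 47.7, 45.9 and 60.8 against 67.9, 56.8 and 134 in 8025 PBS. All C26 cachexia values exceeded all C26 PBS values, whereas the 8025 groups overlapped and 8025 PBS replicate 4 stood far above its group. The effects were 1.14 ± 0.21 (SE, adjusted p = 0.000204) in C26 and -0.51 ± 0.23 (SE, adjusted p = 0.16) in 8025, and the difference was 1.65 ± 0.31 (SE, adjusted p = 0.021). The region over the start had effects of 0.98 ± 0.27 (SE, adjusted p = 0.01) in C26 and -0.91 ± 0.29 (SE, adjusted p = 0.032) in 8025. There 8025 cachexia had 16.56, 9.21, 11.2 and 15.7 against 18.1, 16.57 and 47.8 in 8025 PBS. The 8025 groups nearly touched, and 8025 PBS replicate 4 again stood far above its group. The mature products lie at chr16:93369737-93369758 and chr16:93369775-93369796 on the plus strand (RefSeq, GRCm38.p6) and are shown with their seeds, bases 2 to 8, in capitals:
mmu-miR-802-5p: uCAGUAACaaagauucauccuu
mmu-miR-802-3p: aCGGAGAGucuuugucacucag
Accessibility at the gene does not give the level of the miRNA, which was not measured.

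Rgs16, which encodes a protein that shortens G protein signalling, had a promoter region (chr1:153740124-153740524) with 105, 91.3, 95 and 108 in C26 cachexia against 77.9, 89.2, 74 and 76.1 in C26 PBS. 8025 cachexia had 64.2, 43.9, 37.7 and 58.2 against 98.5, 114 and 110.3 in 8025 PBS. It closed in 8025 without overlap, while C26 cachexia values lay above C26 PBS without overlap but did not pass the test (0.29 ± 0.17 (SE, adjusted p = 0.299) in C26 and -1.13 ± 0.19 (SE, adjusted p = 5.7e-05) in 8025). The difference was 1.42 ± 0.26 (SE, adjusted p = 0.013), which stayed called whichever library was left out and in 14 of 16 alternatives that kept all libraries. The stretch of Rgs8 and Rgs16 on chromosome 1 is described because 3 called differences lay nearest these genes, and the 2 nearest Rgs8 overlap. Of its 23 regions within 100 kb of either start, 22 had a difference above 0 (49% of all regions). This count includes the 3 calls that chose the stretch. Neighboring regions are not independent, so the counts over the stretch are a description only. In C26 2 of the 23 were called higher and 3 lower (7.44% and 6.81% of all regions), and in 8025 15 were called lower (5.06% of all regions). The 2 Rgs8 calls held in 14 and 10 of the 16 fits that left out a library. Got1, the cytosolic aspartate aminotransferase gene, had a promoter region (chr19:43524665-43525065) with 224, 200.1, 234 and 227 in C26 cachexia against 103, 124, 134 and 99.2 in C26 PBS. 8025 cachexia had 218, 169, 155 and 173 against 165, 158 and 170.3 in 8025 PBS. It opened in C26 alone (0.91 ± 0.13 (SE, adjusted p = 1.2e-06) in C26 and 0.07 ± 0.14 (SE, adjusted p = 0.81) in 8025), and the difference of 0.84 ± 0.18 (SE, adjusted p = 0.047) was lost in 14 of 16 fits that left out a library. The 250 bases before both starts are shown because these promoters carry differences with opposite origins, a closing in 8025 and an opening in C26. The capitals mark a match to TGCNCNC, a loose form of the metal response core that 43.8% of all windows hold. The match by itself does not name a metal response element. The Rgs16 window held no match to any of the 7 motifs searched (chr1:153740103-153740352, plus strand; chr19:43524606-43524855, minus strand; RefSeq, GRCm38.p6):
Rgs16: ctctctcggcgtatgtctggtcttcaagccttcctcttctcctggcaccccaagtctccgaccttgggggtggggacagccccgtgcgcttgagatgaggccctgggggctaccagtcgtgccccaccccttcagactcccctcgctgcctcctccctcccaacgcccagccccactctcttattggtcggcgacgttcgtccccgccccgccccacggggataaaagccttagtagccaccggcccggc
Got1: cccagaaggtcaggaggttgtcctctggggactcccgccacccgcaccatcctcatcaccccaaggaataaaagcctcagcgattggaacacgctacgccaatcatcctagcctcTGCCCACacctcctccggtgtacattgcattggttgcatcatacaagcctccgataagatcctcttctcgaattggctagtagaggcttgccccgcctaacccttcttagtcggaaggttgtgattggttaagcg
The other motifs were STAT (TTCNNNGAA), C/EBP (TTGCNNAA), AP-1 (TGANTCA), glucocorticoid receptor (ACANNNTGT), E-box (CACGTG) and HNF4 core (CAAAGTC), on both strands.

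A region at -764 bp from the start of Car3 closed in 8025 alone, with 42.2, 49, 28.5 and 30.9 in C26 cachexia against 42.7, 37, 50.1 and 32.6 in C26 PBS. 8025 cachexia had 33.1, 33.9, 16.6 and 33.2 against 77.6, 67.7 and 85.1 in 8025 PBS. The difference was 1.29 ± 0.28 (SE, adjusted p = 0.0399), although the region at the start itself closed in both models as given above. Airn, an imprinted antisense transcript of the Igf2r locus, opened in 8025 alone, with 12.9, 19, 19.4 and 16.5 in C26 cachexia against 9.39, 19.1, 13.9 and 17.4 in C26 PBS. 8025 cachexia had 47.3, 66.4, 97.2 and 59.1 against 16.2, 15.2 and 12.1 in 8025 PBS. Its groups overlapped in C26 and were apart in 8025 (0.17 ± 0.28 (SE, adjusted p = 0.77) in C26 and 2.07 ± 0.30 (SE, adjusted p = 3.8e-06) in 8025, difference -1.90 ± 0.41 (SE, adjusted p = 0.041)). An intronic region of Igdcc4 near its start opened in both but more in 8025, with 11.6, 7.12, 24.3 and 9.26 in C26 cachexia against 5.55, 3.82, 5.88 and 5.07 in C26 PBS. 8025 cachexia had 70.1, 101, 43.1 and 78.5 against 4.36, 6.7 and 3.09 in 8025 PBS. Effects were 1.06 in C26 and 3.64 in 8025. At Kcnk10, a potassium channel gene, an intronic region near the start was called lower in C26 alone with 1.58, 0, 0 and 2.74 in C26 cachexia against 7.69, 11.2, 18.6 and 18.5 in C26 PBS. 8025 cachexia had 6.51, 12.6, 5.89 and 11.6 against 10.6, 11.3 and 12.6 in 8025 PBS. Effects were -3.08 in C26 and -0.39 in 8025. The predicted gene Gm29669 (0.61 in C26 and -0.18 in 8025) and the non-coding Dreh (-0.57 in C26 and 1.31 in 8025) completed the set with Pak6. Of the 16 fits that left out a library, the call was lost in 13 at Airn, 12 at Gm29669, 10 at Car3, 6 at Igdcc4 and 2 at Dreh, and in 10 and 4 at the Mir802 regions over the start and after it. The Kcnk10 call held in all 16 of these fits and in 15 of 16 alternatives that kept all libraries.

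Of the 131 regions with a lower effect in C26, 68 were called higher in 8025 alone, 35 were called lower in C26 alone, 16 moved in opposite directions, 7 opened in both and 5 closed in both. An intronic region of Sntg2, a syntrophin gene (chr12:30316864-30317264), had 42.5, 38.4, 33.7 and 31.5 in C26 cachexia against 40.6, 58, 41.2 and 36.2 in C26 PBS. 8025 cachexia had 18.9, 15.5, 14.7 and 27.6 against 1.87, 2.82 and 1.54 in 8025 PBS. All C26 livers had more signal than any 8025 PBS liver, and 8025 cachexia lay between them. Effects were -0.28 ± 0.27 (SE, adjusted p = 0.57) in C26 and 2.65 ± 0.29 (SE, adjusted p = 1.7e-08) in 8025, and the difference of -2.93 ± 0.40 (SE, adjusted p = 0.00046) had the lowest adjusted p of all regions. A region at -1372 bp from the start of Pus7, a pseudouridine synthase gene, showed a closing in C26 with 7.39, 7.12, 4.86 and 3.43 in C26 cachexia against 32.9, 70.7, 55.1 and 40.6 in C26 PBS. 8025 cachexia had 3.25, 2.42, 3.58 and 2.04 against 3.74, 2.82 and 4.63 in 8025 PBS. C26 cachexia values lay near those of both 8025 groups, with effects of -2.96 ± 0.27 (SE, adjusted p = 4.8e-11) in C26 and -0.33 ± 0.29 (SE, adjusted p = 0.53) in 8025 and a difference of -2.62 ± 0.39 (SE, adjusted p = 0.00082). Both were called in every alternative fit.

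Opposite directions were called at Pak6, Map3k13, Tmem174, Nr2f2 and Rab2a. An intronic region near the start of Pak6, a p21-activated kinase gene (chr2:118663983-118664383), had 18.2, 24.5, 19.4 and 16.8 in C26 cachexia against 51.5, 54.8, 38.7 and 46.7 in C26 PBS. 8025 cachexia had 7.1, 20.1, 14.9 and 9.89 against 2.8, 3.88 and 3.09 in 8025 PBS. Groups were apart in both models, on opposite sides, with effects of -1.28 ± 0.29 (SE, adjusted p = 0.0017) in C26 and 1.60 ± 0.32 (SE, adjusted p = 0.00037) in 8025 and a difference of -2.87 ± 0.43 (SE, adjusted p = 0.00082). A region nearest Map3k13, which encodes a MAP kinase kinase kinase (chr16:21844285-21844685), had 7.66, 12.7, 14.3 and 12.3 in C26 cachexia against 16.6, 23.9, 24.8 and 22.5 in C26 PBS. 8025 cachexia had 25.7, 24.2, 41.9 and 23 against 4.99, 7.76 and 9.26 in 8025 PBS. It too closed in C26 and opened in 8025 without overlap (-0.90 ± 0.27 (SE, adjusted p = 0.019) in C26 and 1.79 ± 0.29 (SE, adjusted p = 2.4e-05) in 8025, difference -2.69 ± 0.40 (SE, adjusted p = 0.00082)). A region nearest Tmem174 (chr13:98595340-98595740) had 13.5, 9.89, 14.3 and 5.49 in C26 cachexia against 25.4, 39.5, 32.2 and 32.6 in C26 PBS. 8025 cachexia had 17.7, 50.6, 35.4 and 37.5 against 10.6, 17.3 and 21.1 in 8025 PBS. The C26 groups were apart and the 8025 groups overlapped by 1 cachexia library, with effects of -1.60 ± 0.25 (SE, adjusted p = 9.6e-06) in C26 and 0.99 ± 0.27 (SE, adjusted p = 0.011) in 8025 and a difference of -2.60 ± 0.37 (SE, adjusted p = 0.00082). These 3 calls held in every alternative fit. A region far from the start of Nr2f2, the gene of the nuclear receptor COUP-TFII, had effects of -0.87 ± 0.26 (SE, adjusted p = 0.015) in C26 and 1.52 ± 0.28 (SE, adjusted p = 0.00011) in 8025, and a region nearest Rab2a, a small GTPase gene of ER to Golgi transport, had -1.04 ± 0.30 (SE, adjusted p = 0.013) in C26 and 1.01 ± 0.32 (SE, adjusted p = 0.031) in 8025. The Rab2a call was lost in 12 of 16 fits that left out a library, and the Nr2f2 call in none of them but in 1 of 16 alternatives that kept all libraries.

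Part of the called regions had little signal. Of the 131 regions lower in C26, 41 fell in the lowest quartile of signal, and at 8 called regions both C26 groups averaged under 2 scaled tags, against 1 region where both 8025 groups did. Dgkb, a diacylglycerol kinase gene chosen, like Prss22, with its values known, had an intronic region with 0.53, 0.79, 0 and 0.69 in C26 cachexia against 1.71, 0.64, 1.86 and 2.17 in C26 PBS. 8025 cachexia had 23.7, 22.8, 14.5 and 29.1 against 1.25, 1.41 and 2.57 in 8025 PBS. The 8025 cachexia values stood apart from the 11 other values, with effects of -0.84 in C26 and 3.05 in 8025. A region nearest Prss22, a serine protease gene, had 2.11, 3.16, 4.86 and 2.06 in C26 cachexia against 2.35, 5.1, 1.55 and 1.09 in C26 PBS. 8025 cachexia had 42.3, 53.1, 65 and 42.5 against 3.74, 0.71 and 2.06 in 8025 PBS. Effects were 0.26 in C26 and 4.08 in 8025. All libraries were aligned to mm10, whose sequence comes from the C57BL/6J strain, and the part of strain sequence in the low C26 values was not tested.

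Several loci held more than 1 called region. Nearest Mup3, 2 overlapping regions closed in both models but more in C26. The first (chr4:62082736-62083136) had 16.4, 11.9, 13 and 12.3 in C26 cachexia against 68.5, 82.5, 89.5 and 32.6 in C26 PBS. 8025 cachexia had 47.3, 39, 36 and 50 against 71, 80.4 and 61.5 in 8025 PBS. Groups were apart in both models and effects were -2.22 ± 0.17 (SE, adjusted p = 1.4e-12) in C26 and -0.75 ± 0.19 (SE, adjusted p = 0.0047) in 8025. Copies of the Mup family are nearly identical, so the copy of origin is uncertain. Olfr173 had 2 regions of the same kind: one (chr16:58793349-58793749) had 2.38, 3.16, 0.97 and 0.69 in C26 cachexia against 34.6, 46.5, 39.9 and 29.3 in C26 PBS. 8025 cachexia had 3.55, 7.75, 5.89 and 9.31 against 24, 21.9 and 29.8 in 8025 PBS. Effects were -3.93 in C26 and -1.86 in 8025. Nearest Itgb1bp1 on chromosome 12, 4 of 22 regions were lower in C26, with differences of -3.85 to -1.88. Phyh, a peroxisomal phytanic acid hydroxylase gene, had 2 overlapping intronic regions that closed in C26 alone. One (chr2:4937910-4938310) had 58.6, 53, 61.6 and 55.2 in C26 cachexia against 101, 147, 122 and 99.2 in C26 PBS. 8025 cachexia had 87.2, 122, 94.9 and 115 against 113, 104 and 104 in 8025 PBS. Effects were -1.05 ± 0.12 (SE, adjusted p = 2.1e-08) in C26 and -0.07 ± 0.13 (SE, adjusted p = 0.797) in 8025. Vmn2r20 had 2 overlapping regions with the reverse origin, closed in 8025 alone (0.11 in C26 and -0.90 in 8025 for the first). The calls at the Mup3, Olfr173 and Phyh regions given with values held in all 16 fits that left out a library, and in 14 of 16, 13 of 15 and 14 of 16 alternatives that kept all libraries and tested them. The second regions of Mup3, Olfr173 and Phyh were called in 6, 15 and 5 of the 16 fits that left out a library, the Vmn2r20 regions in 14 and 12, and the Itgb1bp1 regions in 8 to 16.

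Regions were assigned to a list when their nearest start belonged to a member and lay within 100 kb, and no list was tested as a set. Among all 158532 regions within 100 kb of a start, 7.47% were called higher and 6.24% lower in C26 cachexia. In 8025 cachexia 7.10% were called higher and 4.91% lower. For the difference, 41 (0.0259%) were called higher and 108 (0.0681%) lower in C26. In both models 3.32% of these regions opened and 2.31% closed, and 1.33% opened and were shared in size. The acute phase list had 416 regions, of which 202 were called higher and 5 lower in C26, and 173 higher and 5 lower in 8025. Its median effects were 0.75 in C26 and 0.59 in 8025, 144 regions (34.6%) opened in both and 43 (10.3%) opened and were shared in size. It held 0 called differences, which at the shares given for all regions does not set a list of this size apart. The metallothionein and zinc list had 75 regions, of which 33 were called higher and 1 lower in C26, and 23 higher and 0 lower in 8025. Its medians were 0.51 in C26 and 0.33 in 8025 and no called difference. For IL-6/STAT3 and NF-kB signalling there were 582 regions, of which 112 were called higher and 28 lower in C26, and 96 higher and 31 lower in 8025. The integrated stress list had 305 regions, of which 48 were called higher and 7 lower in C26, and 38 higher and 3 lower in 8025. In the NRF2 list of 359 regions, 8 were called higher and 63 lower in C26, and 9 higher and 67 lower in 8025. Of these regions 41 (11.4%) closed in both.

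Among metabolic lists, the lipogenesis and glycolysis list had 454 regions, of which 26 were called higher and 44 lower in C26, and 20 higher and 97 lower in 8025. Its medians were -0.04 in C26 and -0.33 in 8025 and a median difference of 0.25. The growth hormone and male-biased list had 627 regions, of which 28 were called higher and 121 lower in C26, and 12 higher and 117 lower in 8025. Its medians were -0.20 in C26 and -0.44 in 8025. In this list 67 regions (10.7%) closed in both, where 2.31% of all regions within 100 kb of a start did so. In the clock list of 292 regions, 45 were called higher and 25 lower in C26, and 21 higher and 44 lower in 8025. In the gluconeogenesis and glucocorticoid list of 777, 99 were called higher and 38 lower in C26, and 50 higher and 40 lower in 8025. In the urea cycle and amino acid list of 764, 107 were called higher and 26 lower in C26, and 59 higher and 24 lower in 8025. Over the highest quartile of regions by signal the median difference was 0.10, and it was 0.00 after cyclic loess scaling, where the lipogenesis median was 0.21 and the clock median 0.03. The lists are described beside these values and were not set apart from them by a test.

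**Figure D5:**
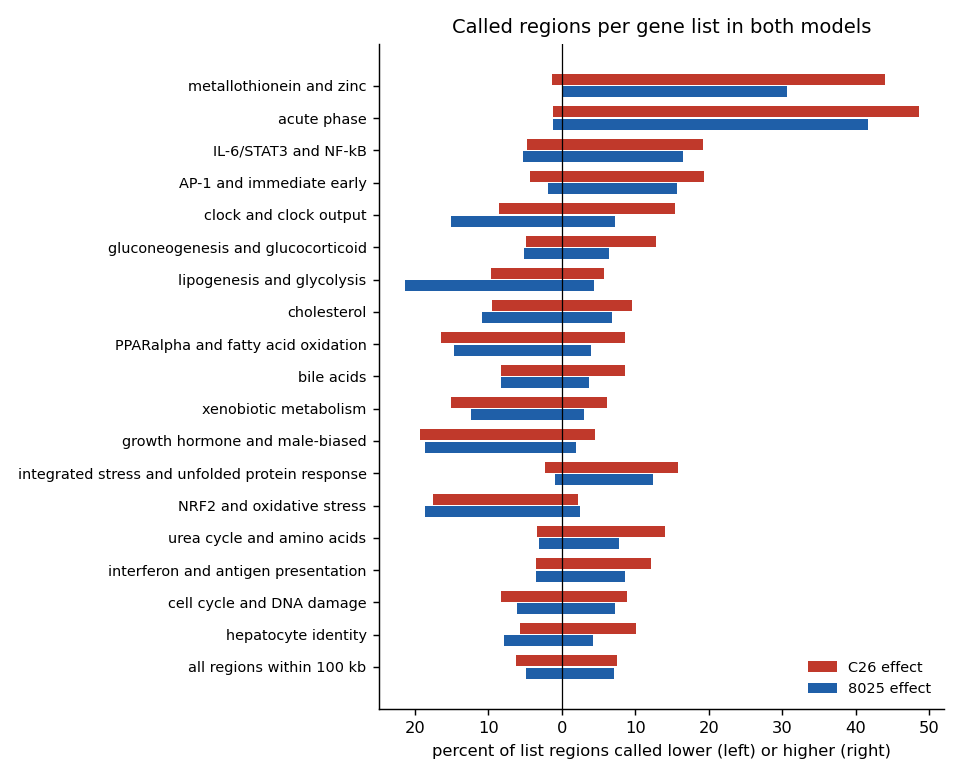
Bars give the percent of each list's regions called lower (left) or higher (right) in cachexia, red for the C26 effect and blue for the 8025 effect, with all regions within 100 kb of a start at the bottom. Acute phase and metallothionein bars reach furthest right in both models, and the lipogenesis bar reaches further left in 8025 than in C26.

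Within the lists, 12 regions had a called difference. The growth hormone and male-biased list held the most, 3 higher and 2 lower in C26 among 627 regions. Of all 158532 regions within 100 kb of a start, 0.0259% were called higher and 0.0681% lower in C26. The 12 are described singly and were not set apart from these shares by a test. At Thrsp, a lipogenic gene, a region at -6347 bp from the start had 136, 142, 142 and 138 in C26 cachexia against 131, 186, 143 and 118 in C26 PBS. 8025 cachexia had 107, 107, 93.9 and 98.3 against 174, 208 and 161 in 8025 PBS. It closed in 8025 alone (-0.07 ± 0.12 (SE, adjusted p = 0.78) in C26 and -0.85 ± 0.12 (SE, adjusted p = 3.6e-06) in 8025). Cyp4a12a, a male-biased fatty acid hydroxylase gene, closed in 8025 alone as well (0.04 in C26 and -1.47 in 8025). Opening in C26 alone was called at Ppargc1a, the coactivator of gluconeogenic and mitochondrial genes, with 66.8, 46.7, 63.2 and 56.2 in C26 cachexia against 28.2, 40.8, 37.8 and 25.7 in C26 PBS. 8025 cachexia had 48.2, 43.6, 39.1 and 48.9 against 46.8, 45.5 and 55.6 in 8025 PBS. Effects were 0.78 ± 0.14 (SE, adjusted p = 9.2e-05) in C26 and -0.16 ± 0.15 (SE, adjusted p = 0.57) in 8025. Socs2, an inhibitor of growth hormone signalling, had a region that opened in both and more in C26, with 78.2, 55.4, 81 and 68.6 in C26 cachexia against 14.9, 22.9, 14.2 and 7.61 in C26 PBS. 8025 cachexia had 108, 119, 93.5 and 123 against 43.9, 50.8 and 74.1 in 8025 PBS. Effects were 2.22 ± 0.18 (SE, adjusted p = 3.3e-12) in C26 and 0.96 ± 0.19 (SE, adjusted p = 0.00048) in 8025. Insig2, which retains the SREBP machinery in the ER, had the reverse, with 59.4, 57.7, 45.7 and 51.1 in C26 cachexia against 27.5, 43, 28.5 and 26.4 in C26 PBS. 8025 cachexia had 48.8, 54.3, 67.8 and 38.4 against 6.86, 8.81 and 9.77 in 8025 PBS. Effects were 0.74 ± 0.21 (SE, adjusted p = 0.012) in C26 and 2.44 ± 0.23 (SE, adjusted p = 4.3e-10) in 8025. Plin2, the lipid droplet coat gene, had a region that closed in C26 alone, with 33.8, 13.4, 22.7 and 20.6 in C26 cachexia against 66.6, 88, 97.2 and 78.2 in C26 PBS. 8025 cachexia had 19.5, 17, 21.7 and 26.2 against 21.8, 26.8 and 29.8 in 8025 PBS. Effects were -1.91 ± 0.22 (SE, adjusted p = 2.1e-08) in C26 and -0.34 ± 0.23 (SE, adjusted p = 0.41) in 8025. In C26 PBS it stood above every other group. Fosb, an AP-1 gene, had a region at -11604 bp from its start that opened in 8025, with 11.1, 8.7, 9.07 and 10.3 in C26 cachexia against 5.34, 3.82, 3.71 and 6.52 in C26 PBS. 8025 cachexia had 47.9, 44.4, 146 and 37.8 against 6.86, 3.53 and 2.83 in 8025 PBS. Replicate 3 of 8025 cachexia was far above its group. The effects were 0.88 ± 0.36 (SE, adjusted p = 0.095) in C26 and 3.49 ± 0.38 (SE, adjusted p = 1.6e-08) in 8025, and the Ercc1 region called higher in C26 alone lies in the same stretch of chromosome 7. Tspan8, from the cholangiocyte list (1.79 in C26 and 0.66 in 8025), completed the set with Got1, Car3 and Mup3. Leaving out a library ended the call in 13 of 16 fits at Ppargc1a, 11 at Thrsp, 10 at Cyp4a12a, 9 at Socs2, 8 at Plin2, 5 at Fosb and 2 at Tspan8. It ended no call at Insig2, which was called in 13 of 16 alternatives that kept all libraries.

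PBS livers of the 2 models differed at many of these regions. C26 PBS and 8025 PBS were called different at 8524 of all regions (4.82%). Of the 47 regions with a higher effect in C26, 44 had a lower level in C26 PBS than in 8025 PBS, with a median of -0.68 log2. This difference enters the contrast, so its direction follows in part from the choice of regions. NC26 PBS (BALB/c) and MC38 PBS (C57BL/6N) livers, which are outside the contrast, had the same order at 43 of the 47, with a median of -0.47, where 48.6% of all regions have that order. Of the 131 regions with a lower effect in C26, 17 had the lower PBS level in C26 and 38 had it in NC26 against MC38. Weight-stable tumors gave few calls: NC26 tumor against PBS was called at 312 regions (0.176%) and MC38 tumor against PBS at 33 (0.0186%). None of the 39 regions that belong to C26 was called in NC26, and 3 of the 49 that belong to 8025 were called in MC38.

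By position, among regions with a higher effect in C26, 10.6% were promoters, against 0.763% of those with a lower effect and 12.3% of all tested regions. Regions shared in size were promoters in 11% (opened) and 7.29% (closed) of cases. Median signal was 5.85 on the log2 scale for differences higher in C26, 3.62 for those lower in C26 and 3.48 for all regions. Shared calls also followed signal, from 0.00452% of regions in the lowest quartile to 6.62% in the highest, where 85.6% of intervals lay within 1 log2 unit against 0.172% in the lowest.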

How the data were processed

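Hepatocyte nuclei were profiled by ATAC-seq in 35 libraries, each from its own animal per the labels. Per the submitters' processing notes, BWA 0.7.5a-r405, SAMtools, HOMER and mm10 were used. The deposited signal is tags in 400 bp regions scaled by the authors to 10000000 tags per library, with nearest gene and feature class in the same table. Every value was a whole number of read ends within 0.05 at 0.5 tags per read end, so whole reads were recovered for the count tests. Replicates come from separate animals.

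Values were divided by TMM factors (edgeR 4.0.16) and fitted as log2(value + 1) by limma 3.58.1 (trend, robust), with 9 groups and library series in 1 model (25 residual degrees of freedom) and Benjamini-Hochberg adjustment at 0.05 over 176957 regions, after 947 with low counts were removed. Effects are on the log2(value + 1) scale, which understates changes of low regions. A region is named by its nearest start, which need not be the gene it acts on. Errors are SE from the fit, and intervals are 95%. In simulated data of 175837 regions, changes were planted only in regions with signal at or above the median. There, 24% of 100 differences of 1 log2 unit and 85% of 100 differences of 2 were recovered. Unchanged regions gave 3 calls. The simulated spread followed its trend over signal and not the spread of single regions, and recovery at lower signal was not tried.

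Named regions were the 6 largest called differences per direction, the 5 strongest shared regions per direction, up to 3 opposite regions per direction and the 4 genes with most called regions per direction, with signal and overlap conditions and without predicted genes and small RNAs, plus the 49 panel promoters. The largest differences had to show no overlap between cachexia and PBS in the model with the larger effect. The strongest shared regions had to show none in either model. Regions named outside this rule are marked. The comparison, the lists and the panel were chosen with earlier results of these data known. Alternatives changed scaling, filter, pseudocount, libraries, covariates and test (edgeR and DESeq2 1.42.0 on the recovered reads).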

Additional observations from a re-analysis of the deposited data

Results flagged for a closer look

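The cachexia effect differed between the models by the test of the difference at these named regions, given as C26 effect minus 8025 effect in log2 with limma. Higher in C26 were Zmynd8 (1.77), Nsmce2 (1.65), As3mt (1.63), Synm (1.60), Lrrc32 (1.60), Etv6 (1.58), Vmn2r20 (1.02), Rgs8 (0.81), Sdr42e1 (1.53), Ercc1 (2.62), Mir802 (1.89), Mir802 (1.65), Rgs16 (1.42), Car3 (1.29), Got1 (0.84), Gm29669 (0.78), Thrsp (0.79), Tspan8 (1.14), Socs2 (1.26), Ppargc1a (0.94) and Cyp4a12a (1.51). Lower in C26 were Sntg2 (-2.93), Pak6 (-2.87), Map3k13 (-2.69), Pus7 (-2.62), Tmem174 (-2.60), Nr2f2 (-2.39), Rab2a (-2.05), Itgb1bp1 (-2.14), Mup3 (-1.47), Olfr173 (-2.07), Phyh (-0.97), Dreh (-1.89), Airn (-1.90), Igdcc4 (-2.58), Kcnk10 (-2.69), Fosb (-2.62), Insig2 (-1.70), Plin2 (-1.58) and Mup3 (-1.53).

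Single libraries stood apart from the 3 others of their group in 16 of 297 groups of 4 over 99 named regions, where chance flags about 1 in 20 groups. C26 cachexia replicate 3 had 11.7 at Nsmce2 (10.6 to 10.7 in the others), in scaled tags. 8025 cachexia replicate 3 had 41.9 at Map3k13 (23 to 25.7 in the others), 16.6 at Car3 (33.1 to 33.9 in the others), 146 at Fosb (37.8 to 47.9 in the others), 48.8 at Saa1 (112 to 119 in the others) and 87.8 at Serpina3n (113 to 117 in the others), in scaled tags. C26 cachexia replicate 1 had 3.96 at Fgf9 (2.37 to 2.59 in the others) and 63.9 at Mir802 (93.7 to 95.3 in the others), in scaled tags. C26 PBS replicate 1 had 17.9 at Emc2 (22.3 to 23.2 in the others), in scaled tags. 8025 cachexia replicate 2 had 23 at Itgb1bp1 (14.2 to 15.1 in the others), in scaled tags. C26 PBS replicate 2 had 43 at Insig2 (26.4 to 28.5 in the others) and 93 at G6pc (69.2 to 72.2 in the others), in scaled tags. 8025 cachexia replicate 1 had 219 at Hpx (196 to 199.6 in the others), 339 at Fgg (264 to 268 in the others) and 30.8 at Igf1 (22.3 to 23.8 in the others), in scaled tags. 8025 cachexia replicate 4 had 106 at Cpt1a (127 to 129.5 in the others), in scaled tags.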

How the results depend on the processing

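No called value at a named region changed sign in any alternative, but counts moved and so did the comparison of sizes. For single named regions, without the panel promoters, 1234 results stayed on their side of the threshold and 354 lost their call. Panel promoters, where Mt1 gained a call in an alternative as given above, are not in these counts. Called differences (178) became 55 with library totals, 107 and 742 with pseudocounts of 0.5 and 5, 472 with the 15 compared libraries alone, 16 with the promoter share as covariate, 897 with array weights, 1061 with all PBS groups of a strain as reference and 800 with DESeq2. RLE factors gave 172, cyclic loess 162, edgeR 210 and no filter 180. Regions that belong to a single model (88) became 16 with library totals, 51 and 622 with pseudocounts of 0.5 and 5, 249 with the 15 libraries, 10 with the promoter share, 489 with array weights, 620 with PBS groups of the strain, 367 with DESeq2 and 35 with an interval bound of 1.5-fold. Opposite regions (21) became 6, 13, 42, 2, 72, 91 and 47 with library totals, pseudocount 0.5, the 15 libraries, the promoter share, array weights, PBS groups of the strain and DESeq2. Regions shared in size (4591) became 1016 with the 1.5-fold bound, 2123 with library totals, 8322 with pseudocount 5 and 8245 with PBS groups of the strain, which also raised the 8025 calls to 35682. The cause was not tested.

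The share of regions with the larger effect in C26 ran from 42.6% (without 8025 PBS replicate 4) to 51.7% (without C26 cachexia replicate 1), against 48.2% with all libraries. Among closed regions it ran from 46.7% to 57.1%, against 52.6%, in the same fits, and among opened regions from 39% to 47.6%, against 44.5%.

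Replicate numbers did not pair the samples (correlations of deviations between same-numbered libraries were -0.09 to 0.06). With a replicate block, 62 differences, 24 regions of a single model and 11 opposite regions were called. Leaving out each library gave 64 (without 8025 PBS replicate 2, and also without 8025 cachexia replicate 2) to 401 (without 8025 cachexia replicate 1) differences, 24 to 218 regions of a single model, 5 to 31 opposite regions, 2656 to 5201 shared regions, 19354 to 27536 C26 calls and 12867 to 24021 8025 calls. The high values for shared regions, C26 calls and 8025 calls came without NC26 tumor replicate 1, which was added after seeing the data as the library with the fewest tags, and gave 291 differences. Precision followed signal: the median SE of the difference was 0.61 in the lowest quartile of signal and 0.23 in the highest.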
